A study of Mus musculus with 24 samples.

Results

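The serine S776 of ataxin-1, the protein of the Atxn1 gene, is a phosphorylation site for which protein kinase A (PKA) and the mitogen- and stress-activated kinases MSK1 and MSK2 have been proposed as kinases. The 8 genes described here encode the PKA catalytic subunits (Prkaca and Prkacb), the PKA regulatory subunits (Prkar1a, Prkar1b, Prkar2a and Prkar2b), MSK2 (Rps6ka4) and MSK1 (Rps6ka5). They were taken by name from 54232 genes counted in each library, by a rule that uses no measured value, though other results of these data were already known. All 8 were among the 22502 genes that passed the filter on low counts.

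RNA from the whole cerebellum of 24 mice aged 6 weeks was sequenced, 1 library per mouse. The WT group (Atxn1 2Q/2Q, both alleles unexpanded) held 8 mice. The SCA1 group (Atxn1 154Q/2Q) carried 1 expanded CAG repeat and held 4 mice. The SCA1 S776A group (Atxn1 154Q[S776A]/2Q) carried the serine-to-alanine change on the expanded allele, the S776A double group (Atxn1 154Q[S776A]/2Q[S776A]) on both alleles, and the WT S776A homozygous group (Atxn1 2Q[S776A]/2Q[S776A]) on both unexpanded alleles, with 4 mice each. All groups were on the C57BL/6J background, and all alleles sit at the Atxn1 locus and are expressed from it rather than from a transgene. The S776A alleles were made by CRISPR/Cas9 and also carry synonymous changes, and the labels do not give the founder line of a mouse. The WT mice fell into 2 sequencing batches, inferred from the mapping statistics. Batch 1 held WT mice 1 to 4 and the 12 mice with the expanded allele, batch 2 held WT mice 5 to 8 and the WT S776A homozygous mice, and each genotype was compared with the WT mice of its own batch. The depth was 62163600 to 88430180 fragments on genes, and the member with the fewest fragments, Prkar2b, still had 911 to 1766 per library.

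PKA rests as a complex in which a pair of regulatory subunits holds a pair of catalytic subunits inactive. Cyclic AMP (cAMP) binds the regulatory subunits and frees the catalytic ones. In the cerebellum, PKA is known for its part in the presynaptic strengthening of granule cell synapses onto Purkinje cells. MSK1 and MSK2 are nuclear kinases that are switched on by the ERK and p38 MAP kinases and phosphorylate CREB and histones.

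The 39 coding bases around the serine codon of Atxn1 and around the inhibitor sites of the regulatory subunits are shown because both are sites that the PKA catalytic subunit recognizes, by arginine codons just ahead of the codon in capitals. They are the reference sequences of the longest transcript of each gene in the GENCODE M21 annotation of GRCm38, read 5′ to 3′ on the gene's strand, with the codon at the phosphorylated or inhibitor position in capitals.
Atxn1: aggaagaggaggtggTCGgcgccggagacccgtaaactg
Prkar1a: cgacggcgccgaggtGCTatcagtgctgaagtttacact
Prkar1b: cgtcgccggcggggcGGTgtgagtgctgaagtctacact
Prkar2a: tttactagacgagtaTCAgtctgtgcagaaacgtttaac
Prkar2b: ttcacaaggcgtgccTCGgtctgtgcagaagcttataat
The Atxn1 bases lie in the coding part of exon 8 of 8, at chr13:45557157-45557195 on the minus strand, and the serine codon is codon 751 of this mouse transcript, while the name of the mutation uses another numbering. The Prkar1a bases lie in exon 4 of 12 (chr11:109660101-109660139, plus strand) and the Prkar1b bases in exon 3 of 11 (chr5:139108514-139108552, minus strand). In these type I subunits the codon in capitals is an alanine or a glycine codon, which cannot be phosphorylated. The Prkar2a bases (chr9:108714290-108716882, plus strand) and the Prkar2b bases (chr12:31993764-32038640, minus strand) were joined across the intron between exons 2 and 3 of 11. In these type II subunits the codon in capitals is a serine codon, as in Atxn1.

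The level of each transcript was expressed per length, as counts scaled to library size and divided by the kilobases of exon (RPKM). Prkar1a, the type I alpha regulatory subunit, was the highest, with a median over the 24 mice of 155 RPKM (lowest 137, highest 224). Prkar1b, the type I beta subunit found mainly in neurons, followed at 79.8 RPKM (70.4 to 109). The catalytic subunits came next, Prkaca at 57.7 RPKM (49 to 84.7) and Prkacb at 38.5 RPKM (30 to 49.1). Prkar2a was at 10.8 RPKM (9.76 to 11.9), Rps6ka4 at 7.66 RPKM (6.52 to 9.58), Rps6ka5 at 6.48 RPKM (5.61 to 7.52) and Prkar2b at 4.26 RPKM (3.36 to 6.11). The substrate gene Atxn1 lay in the same low range, at 4.11 RPKM. Within a mouse the order of the 8 members, with Atxn1 left out, was nearly fixed. Each member lay above the next one in 24 of 24 mice, apart from Rps6ka4, which lay above Rps6ka5 in 23.

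Across mice, the ranges of neighbours in this order were apart for Prkar1a and Prkar1b, for Prkacb and Prkar2a, and for Prkar2a and Rps6ka4, and they overlapped for the other 4 pairs. The order of the catalytic subunits and that of the MSK genes turned on the length used. Prkacb and Rps6ka5 have long annotated exons (8772 and 11932 bases as a union of exons, 4347 and 5642 bases in the longest transcript). With the length of the longest transcript, Prkacb lay at 77.8 RPKM against 63 for Prkaca and was higher in 23 of 24 mice. With that length Rps6ka5 was at 13.7 RPKM and Rps6ka4 at 8.87 RPKM, and Rps6ka5 and Prkar2a did not separate, with Prkar2a higher in 14 of 24 mice.

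**Figure D1:**
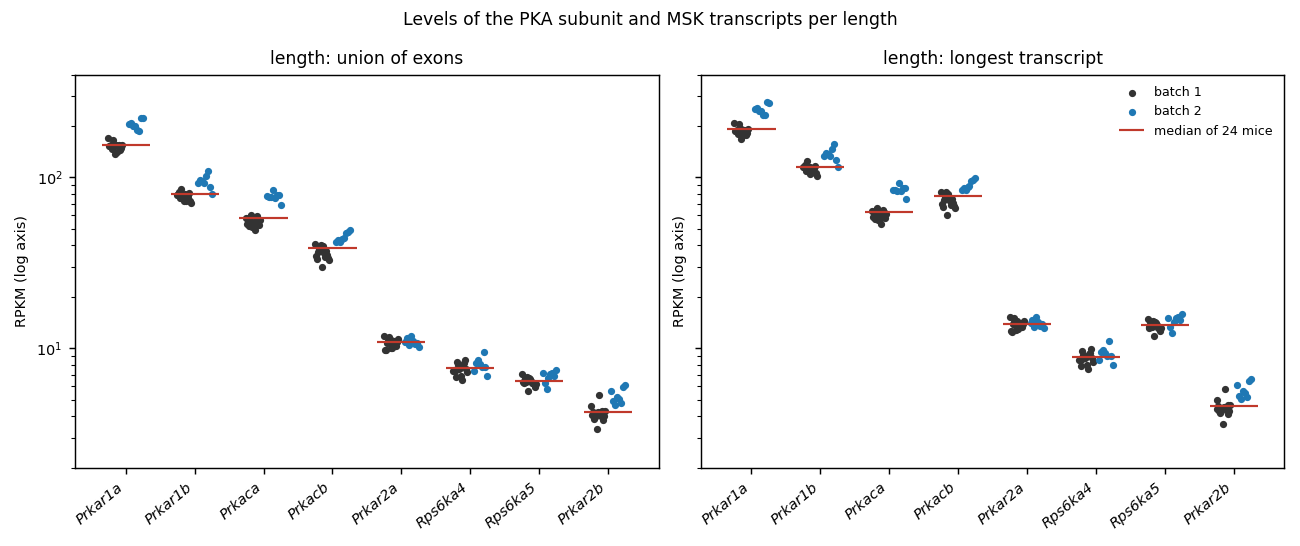
RPKM (log axis) of the 8 genes in each of the 24 mice, with dark points for batch 1, blue points for batch 2 and a red line at the median, using the union of exons (left) or the longest transcript (right) as length. Prkar1a was the highest and Prkar2b the lowest with either length, while Prkaca and Prkacb, and Rps6ka4 and Rps6ka5, changed places.

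Comparing each genotype with WT of its own batch asks whether the transcripts of these kinases move when ATXN1 is expanded or its S776 is lost. None of the 8 genes was called in any of the comparisons. A gene was called at an adjusted p under 0.01 in edgeR's quasi-likelihood test (Benjamini-Hochberg adjustment over all 22502 genes) combined with a log2 fold change of more than 0.5 in size. The members called were 0 of 8 in SCA1 against WT, where 0.173% of all genes tested were called, 0 of 8 in SCA1 S776A (0.0133% of all genes), 0 of 8 in S776A double (0.0267%) and 0 of 8 in WT S776A homozygous mice (0%). Between the genotypes that carry the expanded allele, 0 of 8 were called when SCA1 mice were the reference for SCA1 S776A mice (0.00444%) or for S776A double mice (0%), and when SCA1 S776A mice were the reference for S776A double mice (0%). Of these 56 comparisons, 2 had an unadjusted p under 0.05 with edgeR, and 2 had one with DESeq2, 2 with limma-voom and 3 with ComBat-seq followed by DESeq2, again with 0 called by each. Over all genes tested, an unadjusted p under 0.05 was reached, in the same order of comparisons, by 8.25%, 3.93%, 6.93%, 9.98%, 4.35%, 3.64% and 2.96%. The mice of the groups compared did not overlap in 2 of the 56 comparisons. Over all genes, that was the case for 8.76%, 4.39%, 7.11%, 2.65%, 3.41%, 2.7% and 2.65% in the same order, counting either direction.

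The data bounded the changes narrowly. The largest log2 fold change in size was 0.21, and the 95% intervals of all 56 comparisons lay inside the threshold of 0.5 on either side. The lowest bound was -0.30 (a change of -18.6%) and the highest was 0.41 (32.7% higher). The median log2 fold change of the members was 0.02 for SCA1, 0.01 for SCA1 S776A, 0.05 for S776A double and 0.01 for WT S776A homozygous mice, against 0.00, 0.00, 0.00 and 0.01 over all genes tested. The counts come from whole tissue, in which fewer cells of a type and less RNA per cell cannot be told apart.

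**Figure D2:**
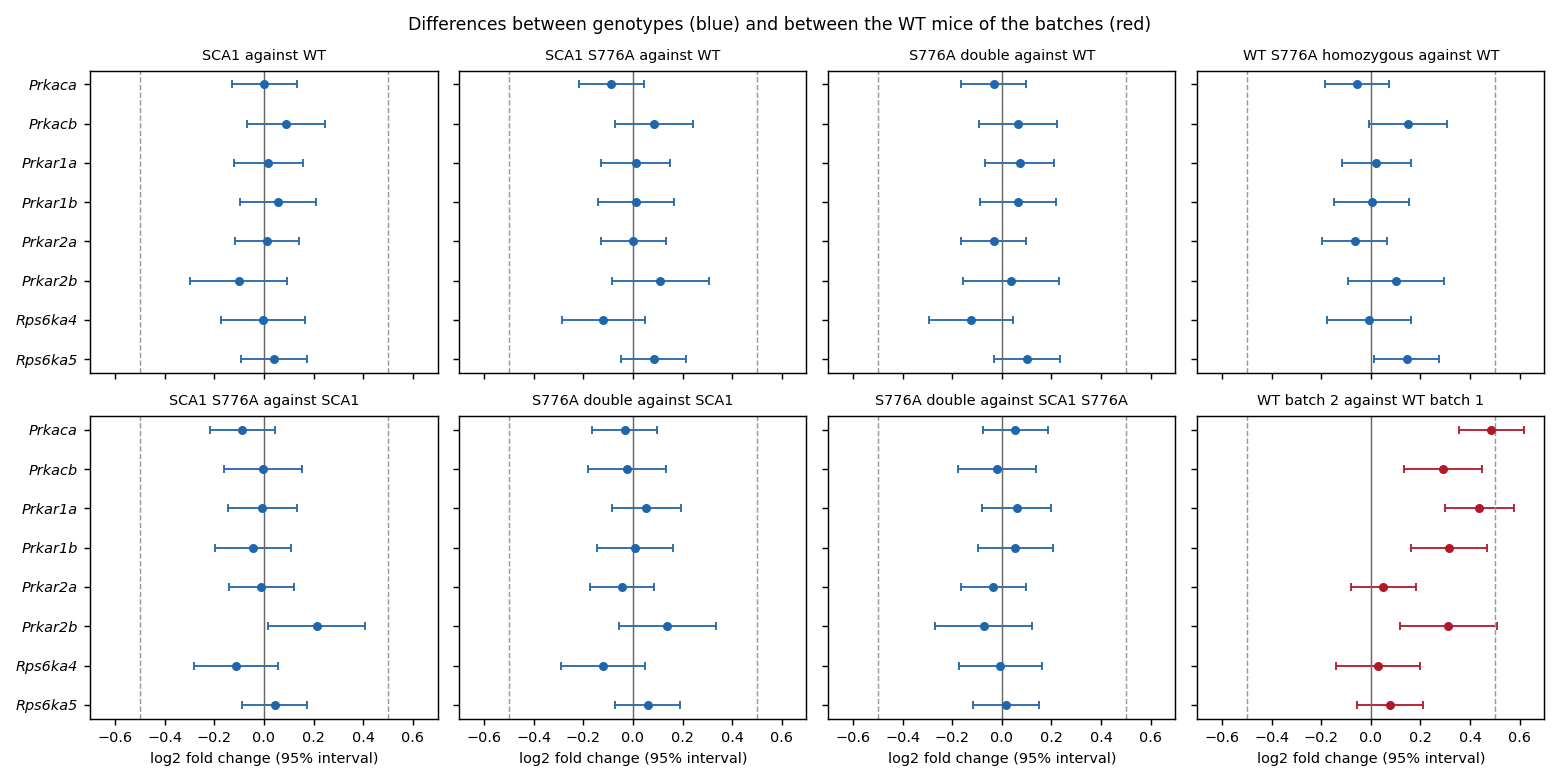
Log2 fold change (point) and 95% interval (bar) of the 8 genes in 7 comparisons between genotypes (blue) and between the WT mice of batch 2 and batch 1 (red), with dashed lines at the fold threshold of 0.5. All blue intervals lie between the dashed lines, and 5 of the 8 red intervals lie wholly above 0.

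Prkaca encodes the catalytic subunit C alpha (chromosome 8, 83972993 to 83996443, plus strand). Its counts scaled to library size (CPM) were 147, 142, 131 and 139.9 in the WT mice of batch 1, and 147, 151, 128 and 135 in SCA1 mice. They were 137, 130.1, 122 and 139 in SCA1 S776A mice and 145, 133, 140.4 and 129.97 in S776A double mice. The 4 groups overlapped throughout. The log2 fold change against WT was 0.00 in SCA1 mice (95% interval -0.13 to 0.13), -0.09 in SCA1 S776A mice (-0.22 to 0.04) and -0.03 in S776A double mice (-0.16 to 0.10). In batch 2, the WT mice had 193, 192, 190.1 and 211 CPM and the WT S776A homozygous mice 189.7, 197, 197 and 171 CPM (log2 fold change -0.06, interval -0.19 to 0.07).

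Prkacb encodes the catalytic subunit C beta (chromosome 3, 146729574 to 146812990, minus strand). The WT mice of batch 1 had 324, 309, 296 and 289 CPM and the SCA1 mice 335, 341, 355 and 263 CPM, a log2 fold change of 0.09 (interval -0.07 to 0.25) with overlapping groups. SCA1 S776A mice averaged 323 ± 19.2 CPM and S776A double mice 318 ± 28.6 CPM (SD over 4 mice each). In batch 2 the groups did not overlap. The WT mice had 368, 375, 365 and 382 CPM, and the WT S776A homozygous mice had 387, 416, 419.5 and 430.4 CPM. This difference was a log2 fold change of 0.15 (standard error 0.08, interval -0.01 to 0.31) and did not pass the test (adjusted p = 0.502, edgeR). Of all genes tested, 1.32% lay wholly higher in this comparison.

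Prkar1a (chromosome 11, 109649405 to 109669656, plus strand) and Prkar1b (chromosome 5, 139017306 to 139150001, minus strand) make up the type I regulatory subunits. In batch 1 Prkar1a ranged from 625 to 673 CPM in WT, from 591 to 717 in SCA1, from 610.1 to 669.9 in SCA1 S776A and from 658 to 733 in S776A double mice. Relative to WT it differed by a log2 fold change of 0.02 in SCA1 (interval -0.12 to 0.16), 0.01 in SCA1 S776A (-0.13 to 0.15) and 0.07 in S776A double mice (-0.07 to 0.21). Prkar1b ranged from 268 to 307 CPM in WT and from 276 to 327 in SCA1 mice, with log2 fold changes of 0.06, 0.01 and 0.07 in the same 3 genotypes. The exons of Prkar1b share 8.95% of their length with the predicted gene Gm15672 on the same strand, and fragments there were left out of both genes. The overlap was smaller for Rps6ka4 (59 bases, with the microRNA gene Mir5046) and Rps6ka5 (179 bases, with the predicted gene Gm49703), and the other 5 members shared no exon with another gene.

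The WT S776A homozygous mice spread widely in both type I subunits and in opposite directions. Prkar1a was at 815 and 813 CPM in mice 1 and 2 and at 966 and 964 CPM in mice 3 and 4. Prkar1b was at 386 and 414 CPM in mice 1 and 2 and at 333 and 304 CPM in mice 3 and 4. Mice 1 and 2 lay below the WT mice of the batch (863 to 896 CPM) for Prkar1a and above them (351 to 369 CPM) for Prkar1b, and mice 3 and 4 the other way round. The group means were therefore close to WT, with log2 fold changes of 0.02 (interval -0.12 to 0.16) for Prkar1a and 0.00 (-0.15 to 0.16) for Prkar1b. In mice 1 to 4 the summed oligodendrocyte markers were 8437, 8622, 10475 and 11511 CPM, so that mice 3 and 4 also stood highest there. The WT mice of the batch had 8376 to 9207 CPM. The 5 markers differed, with log2 fold changes against WT from -0.17 to 0.26. Mice 3 and 4 lay outside the WT mice in other sums too. Granule cell markers were at 4976 and 4792 CPM (4998 to 5230 in WT). Oligodendrocyte precursor markers were at 26.5 and 23.6 CPM (28.8 to 32.6 in WT). Microglia markers lay higher, at 81.1 and 82.3 CPM (73.3 to 79 in WT). The share of fragments mapping to several places was 3.93%, 4.18%, 4.56% and 5.79%. The part of the marker sums or of these shares in the spread was not tested.

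Prkar2a (chromosome 9, 108689314 to 108750436, plus strand), the type II alpha subunit, was the steadiest of the 8 genes. Its lowest and highest values over all 24 mice were 62.2 and 75.7 CPM, a ratio of 1.22. Set against WT, its log2 fold change was 0.01 for SCA1, 0.00 for SCA1 S776A, -0.03 for S776A double and -0.07 for homozygous WT S776A mice, with interval bounds from -0.20 to 0.14.

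Prkar2b (chromosome 12, 31958476 to 32061296, minus strand), the type II beta subunit, was the most variable, with a biological coefficient of variation of 9.82% and a ratio of 1.82 between the highest and the lowest mouse. The WT mice of batch 1 had 15.8, 14, 14.6 and 15.7 CPM. The SCA1 mice had 14.1, 14.4, 15.2 and 12.3 CPM and the SCA1 S776A mice 15.4, 19.6, 15.2 and 14.7 CPM. The groups overlapped, with SCA1 S776A mouse 2 the highest and SCA1 mouse 4 the lowest of these 12 mice. SCA1 S776A mice set against SCA1 mice gave the largest difference of the 56, at 0.21 on the log2 scale (standard error 0.09, interval 0.02 to 0.41, unadjusted p = 0.0339, adjusted p = 1.00, edgeR), where 4.35% of all genes had an unadjusted p under 0.05. Without SCA1 S776A mouse 2 it was 0.12 (unadjusted p = 0.205, adjusted p = 1.00, edgeR), and without SCA1 mouse 4 it was 0.16 (unadjusted p = 0.110, adjusted p = 1.00, edgeR). Only in these 2 of the 24 fits that each left out 1 mouse was the unadjusted p 0.05 or more (edgeR). Over the 24 fits the difference ran from 0.12 to 0.26. The summed CPM of the 5 choroid plexus markers was 3154 in SCA1 S776A mouse 2 (32.9 to 2646 in the other mice of the group). It was 5145 in SCA1 mouse 4 (893 to 2965 in the others). The part of these markers in the Prkar2b values was not tested.

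Rps6ka4 (chromosome 19, 6829085 to 6840636, minus strand), which encodes MSK2, had 29.3, 30.9, 27.4 and 26 CPM in the WT mice of batch 1. The SCA1 mice had 30, 28.5, 27.4 and 27.3 CPM, and the S776A double mice had 26.4, 26.8, 26.7 and 24.4 CPM. Every S776A double mouse lay below every SCA1 mouse, where 1.12% of all genes tested lay wholly lower. The log2 fold change between these groups was -0.12 (standard error 0.08, interval -0.29 to 0.05) and did not pass the test (adjusted p = 1.00, edgeR). Against WT the log2 fold change was -0.01 in SCA1, -0.12 in SCA1 S776A and -0.12 in S776A double mice, and all 3 intervals held 0. In batch 2 the WT mice averaged 29 ± 1.7 CPM and the WT S776A homozygous mice 28.8 ± 4.03 CPM (SD over 4 mice each).

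Rps6ka5 (chromosome 12, 100548439 to 100726983, minus strand), which encodes MSK1, had 85.2, 75.1, 69 and 80.2 CPM in the WT mice of batch 2. The WT S776A homozygous mice had 84.7, 85.6, 82.2 and 89.7 CPM, and the groups overlapped through WT mouse 5. The log2 fold change was 0.14 (standard error 0.06, interval 0.01 to 0.28, unadjusted p = 0.0331, adjusted p = 0.485, edgeR), in a comparison where 9.98% of all genes had an unadjusted p under 0.05. Without WT mouse 7, the lowest of the WT mice, it was 0.09 (unadjusted p = 0.164, adjusted p = 0.616, edgeR), and the unadjusted p was 0.05 or more in 11 of the 24 fits that each left out 1 mouse. In batch 1 the averages were 73.3 ± 1.6 CPM for WT, 75.5 ± 6.26 for SCA1, 77.7 ± 2.69 for SCA1 S776A and 78.6 ± 4.46 for S776A double mice (SD over 4 mice each). Relative to WT these were log2 fold changes of 0.04, 0.08 and 0.10, and their intervals held 0.

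**Figure D3:**
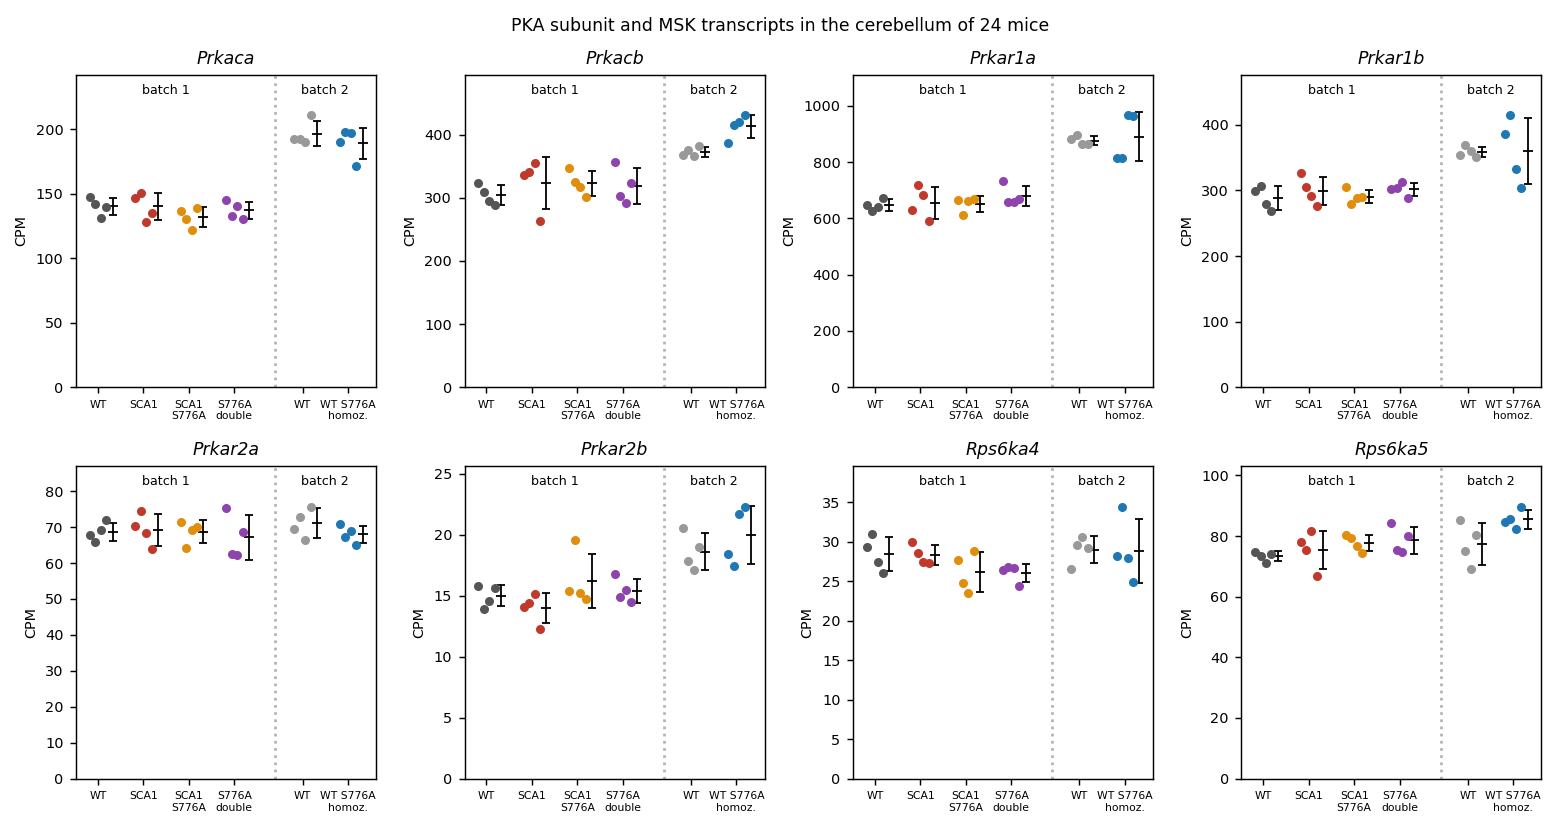
CPM of the 8 genes in every mouse (points), with the mean and SD of each group of 4 (black bars) and a dotted line between batch 1 and batch 2. Within a batch the groups overlapped apart from Prkacb in batch 2 and Rps6ka4 between SCA1 and S776A double mice, while Prkaca, Prkar1a, Prkar1b, Prkacb and Prkar2b lay higher in batch 2.

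A further pair of tests covered the genotypes jointly. The test of all 4 genotype terms together called 0 of 8 members (0.0711% of all genes tested), and no member had an unadjusted p under 0.05 (6.43% of all genes did), the lowest being 0.124 for Rps6ka5. The other test compared adding S776A to the unexpanded allele beside an expanded S776A allele with adding it to both alleles of WT mice. It also called 0 of 8 (0% of all genes), and no member had an unadjusted p under 0.05 (2.88% of all genes did), the lowest being 0.13 for Prkacb. The edited gene Atxn1 had log2 fold changes against WT of 0.21 in SCA1, 0.27 in SCA1 S776A, 0.29 in S776A double and 0.02 in homozygous WT S776A mice, none past the test (edgeR, lowest adjusted p = 0.398). The unadjusted p values of the first 3 were 0.0178, 0.00318 and 0.00189 (edgeR, adjusted p = 0.453, 0.870 and 0.398), with intervals above 0, and the SCA1 and the SCA1 S776A mice lay wholly above the WT mice of batch 1, as did 3.77% and 1.87% of all genes. These comparisons share the WT mice of batch 1. Atxn1 was at 55.2 to 63.9 CPM in SCA1 and 55.3 to 67 in SCA1 S776A mice. Both overlap with the WT mice of batch 2 (47.9 to 62 CPM). Counts per gene do not show the edited base, so they could not check the labels.

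For 5 of the 6 PKA genes, the difference between the batches was larger than any between genotypes. Between the WT mice of batch 2 and those of batch 1, 8 of 8 members had a log2 fold change above 0 (median 0.30, against 0.00 over all genes tested). This was not particular to them. Among the lists of related genes described below, the median was 0.30 for the phosphatases and 0.27 for the PKA inhibitors. The other lists had medians from -0.16 to 0.12. At an adjusted p under 0.01, without the fold threshold, 5 of 8 were higher in batch 2, where 14.1% of all genes were higher and 32.2% differed in either direction. Prkaca was higher by 0.49 on the log2 scale (standard error 0.06, adjusted p = 1.47e-06), Prkar1a by 0.44 (adjusted p = 1.38e-05), Prkar1b by 0.32 (adjusted p = 0.00128), Prkar2b by 0.31 (adjusted p = 0.00908) and Prkacb by 0.29 (adjusted p = 0.00318) in the edgeR test. For these 5 genes the WT mice of the batches did not overlap, as was the case with the same sign for 22.9% of all genes. Prkar2a (0.05), Rps6ka5 (0.08) and Rps6ka4 (0.03) did not pass the test. With the fold threshold 0 of 8 were called, against 17.6% of all genes. The WT mice of the batches share genotype and age, and what differed between the batches is not given in the sources used here.

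Cell type markers were compared between the batches as well. Of 42 markers of 10 cell types, 11 were higher and 1 lower in batch 2 at an adjusted p under 0.01 (edgeR). At that threshold 14.1% of all genes tested were higher and 32.2% differed in either direction. All 5 oligodendrocyte markers were among the higher ones. For WT mice the summed oligodendrocyte markers were 6183 to 7403 CPM in batch 1 and 8376 to 9207 CPM in batch 2. Other sums were also wholly higher in batch 2. Granule cells had 4998 to 5230 against 4289 to 4549 CPM, and astrocytes with Bergmann glia 2599 to 2763 against 2219 to 2505. Microglia had 73.3 to 79 against 65.4 to 69.2 CPM, and endothelial cells 95.1 to 104 against 60.3 to 73.8. Oligodendrocyte precursors were wholly lower (28.8 to 32.6 against 33.2 to 36.2 CPM), and the remaining sums overlapped. The part of these sums in the difference of the PKA genes was not tested. Between genotypes, 0 of 42 markers passed an adjusted p of 0.01 in each of the 4 comparisons with WT, and no marker was at 0 in any group. The Purkinje cell markers summed to 7859 to 9145 CPM in WT mice of batch 1 and to 5852 to 6630 CPM in SCA1 mice. Their median log2 fold change in SCA1 was -0.29. The sum was 6669 to 7766 CPM in SCA1 S776A, 6439 to 8636 in S776A double and 6775 to 8030 in WT mice of batch 2. The molecular layer interneuron sum was also apart, at 361 to 442 CPM in WT mice of batch 1 and 310.5 to 352 in SCA1 mice. The choroid plexus markers ranged from 19.8 to 5145 CPM over all mice.

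The subunits differed in their shares of the PKA transcripts, which are a description on the RPKM scale. Prkar1a made up 63.1 ± 2.41% (SD, n = 24) of the regulatory transcripts and Prkar1b 31.1 ± 2.25% (SD, n = 24), while Prkar2a made up 4.08 ± 0.484% and Prkar2b 1.69 ± 0.173%. The regulatory transcripts together were 2.65 ± 0.108 times the catalytic ones (SD, n = 24), and this ratio ranged only from 2.41 to 2.87 over all mice. Prkacb was 38.6 ± 2.65% of the catalytic transcripts. The share of Prkar2a was 4.48 ± 0.170% for WT mice of batch 1 and 3.56 ± 0.206% for those of batch 2 (SD over 4 mice each). The catalytic transcripts were 6.48 ± 0.201 times the MSK transcripts for WT mice of batch 1 and 8.34 ± 0.194 times for those of batch 2 (SD over 4 mice each). Within a batch these shares overlapped between each genotype and WT, apart from the share of Prkacb in WT S776A homozygous mice. It was 36.7% to 41.6% there and 34% to 35.7% in the WT mice of the batch, for which no test was run.

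**Figure D4:**
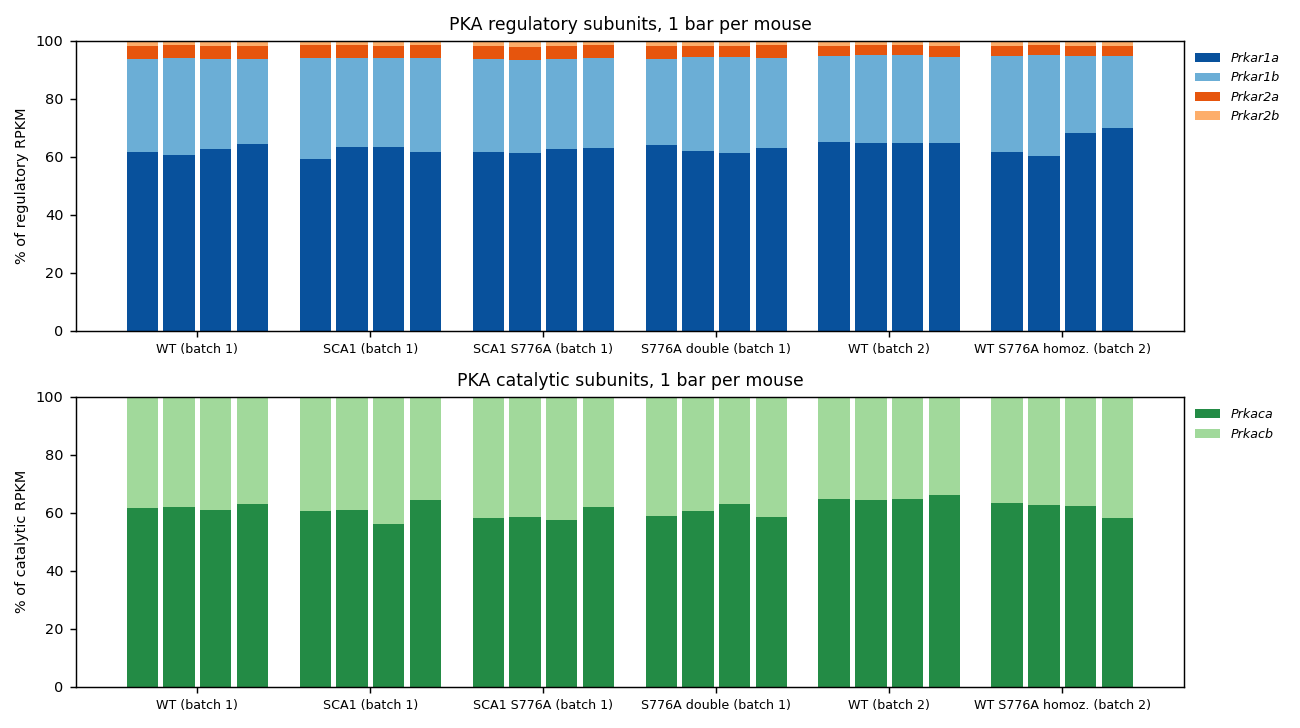
Percent of the regulatory (top) and catalytic (bottom) PKA transcripts, as RPKM, made up by each subunit, with 1 bar per mouse. The type I subunits Prkar1a and Prkar1b fill most of every bar, and WT S776A homozygous mice 3 and 4 have the highest Prkar1a shares, up to 69.9%.

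Some members varied together between mice of one genotype and batch. Over the 24 mice, after subtracting the mean of each genotype and batch, Pearson's r of log2 CPM was 0.79 for Prkar1b and Rps6ka4 and 0.72 for Prkacb and Rps6ka5. It was 0.18 for the pair of catalytic subunits and -0.23 for the MSK genes. Without the 4 WT S776A homozygous mice, an alternative added after the data were seen, these values were 0.70, 0.74, 0.26 and -0.23 (n = 20). The highest value without them was 0.76, for Prkar1a and Prkar2a, a pair at 0.48 with all mice. The lowest values were -0.51 for Prkar2b and Rps6ka4, -0.44 for Prkar1b and Prkar2b and -0.43 for Prkar1a and Prkar1b with all mice, and -0.34, -0.08 and 0.12 without those 4 (n = 20). The sources do not say whether library preparation was shared within a batch. Depth varied within each, from 62163600 to 85575119 fragments on genes in batch 1 and from 74813731 to 88430180 in batch 2. The 28 pairs are given as a description without a test.

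The genes most alike to each member over the 24 mice, by Pearson's r of log2 CPM with the batch removed among 13362 genes, were Arl8a (0.86) and Ubqln2 (0.82) for Prkaca, and Psd3 (0.86) and Ndc1 (0.85) for Prkacb. They were Scg2 (0.93) and Tspyl5 (0.89) for Prkar1a, Grk2 (0.90) for Prkar1b, Slitrk1 (0.90) and Map3k13 (0.89) for Prkar2a, and C130083M11Rik (0.79) and B230354K17Rik (0.75) for Prkar2b. They were Psmd3 (0.92) and Eml2 (0.89) for Rps6ka4, and Pgm2l1 (0.83) and Ndc1 (0.82) for Rps6ka5. Ndc1, which encodes a nuclear pore membrane protein, was thus named for both Prkacb and Rps6ka5.

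Around these kinases, 97 genes were listed, and 96 were tested. They make cAMP or regulate its synthesis up or down, break it down, inhibit or anchor PKA, or act upstream of MSK. Others belong to related kinases, remove phosphate (subunits of the phosphatases PP1 and PP2A) or belong to CREB and its coactivators. None of the 96 was called in any of the 4 comparisons with WT. At an unadjusted p under 0.05, 4 were higher and 7 lower in SCA1 (8.25% of all genes tested had such a p), 1 higher and 1 lower in SCA1 S776A (3.93%), 5 higher and 4 lower in S776A double (6.93%) and 6 higher and 4 lower in WT S776A homozygous mice (9.98%). By list, the 17 genes of cAMP synthesis join adenylyl cyclases with G protein alpha subunits, among them those of the inhibitory family. At that p they had 3 lower in SCA1, 0 in SCA1 S776A, 2 lower in S776A double and 2 lower in WT S776A homozygous mice. There were 0 higher in each, and the list medians were -0.13, -0.07, -0.07 and -0.12. As the list is mixed, these values give no direction for cAMP itself. The 3 PKA inhibitors had 2 higher in WT S776A homozygous mice (median 0.30) and none in the other genotypes. The 18 phosphatase genes had 2 higher and 1 lower in SCA1, 0 in SCA1 S776A, 3 higher and 1 lower in S776A double and 1 higher in WT S776A homozygous mice, with list medians of 0.01, 0.02, 0.02 and 0.04. The medians over the 96 genes were -0.01, -0.01, 0.00 and -0.02 on the log2 scale, in the order SCA1, SCA1 S776A, S776A double and homozygous WT S776A, against 0.00, 0.00, 0.00 and 0.01 over all genes.

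**Figure D5:**
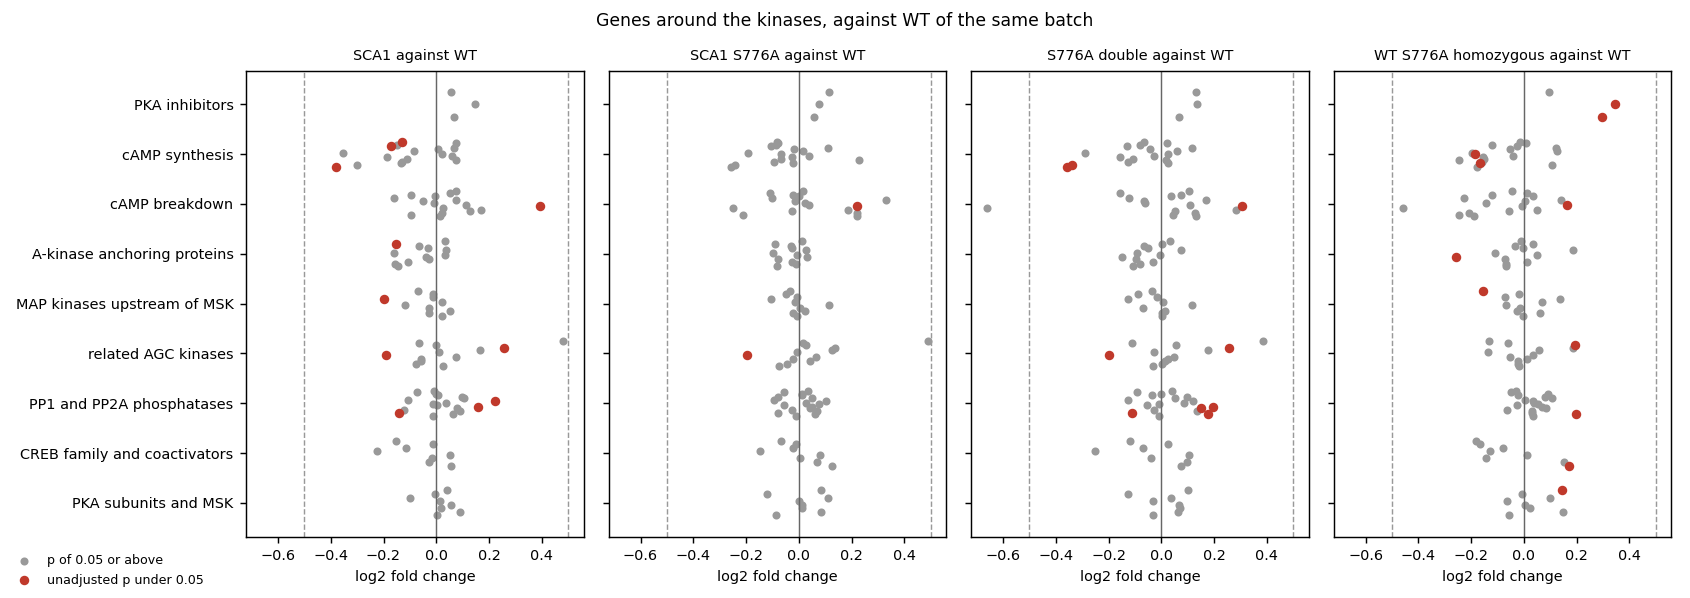
Log2 fold change against WT of the same batch for each of the 96 pathway genes and the 8 kinase genes (1 point each), by list, with red points for an unadjusted p under 0.05 and dashed lines at the fold threshold of 0.5. Most points lie within 0.3 of 0, and the 1 point beyond a dashed line is Pde2a, picked out after its value was seen, at -0.66 in S776A double mice with an interval from -1.55 to 0.23.

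Pde3a, a phosphodiesterase that breaks down cAMP, had the lowest p of the lists in all 3 genotypes with the expanded allele. It was at 28.2, 32.9, 31.2 and 29.9 CPM in the WT mice of batch 1 and at 45.7, 38.1, 40.9 and 35.7 CPM in SCA1 mice, without overlap, which was the case with the same sign for 3.77% of all genes. The log2 fold change was 0.39 (standard error 0.09, adjusted p = 0.0335, edgeR), short of the adjusted p of 0.01 and of the fold threshold. It was 0.22 in SCA1 S776A mice (32.8 to 39.7 CPM, adjusted p = 1.00, edgeR) and 0.30 in S776A double mice (35.2 to 40.1 CPM, adjusted p = 0.373, edgeR). The WT mice of batch 2 ranged from 31.1 to 39.7 CPM, which overlaps with all 3 of these genotypes. The S776A double mice did not overlap with the WT mice of batch 1 either, as for 3.56% of all genes that lay wholly higher. These 3 comparisons share the same 4 WT mice.

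Other genes of the lists with the lowest p did not pass the test either. In SCA1 mice these were Ppp2r2b, a regulatory subunit of the phosphatase PP2A (log2 fold change 0.22, adjusted p = 0.143, edgeR), and Adcy1, an adenylyl cyclase that makes cAMP. Adcy1 had 2554, 2407, 2304 and 2317 CPM in WT mice of batch 1 and 2017, 1977, 1908 and 1457 CPM in SCA1 mice, without overlap (log2 difference -0.38, standard error 0.14, adjusted p = 0.402, edgeR), as for 4.99% of all genes that lay wholly lower. It also lay wholly below these WT mice in SCA1 S776A (1787 to 2193 CPM) and S776A double mice (1681 to 2205 CPM). Over all genes, 4.39% and 7.11% did not overlap in those comparisons, counting either direction. The comparisons of these genotypes share the WT mice of batch 1. In the WT mice of batch 2 Adcy1 ranged from 1473 to 1803 CPM, which overlaps with each of these genotypes. Ppp2r2b was at 45.3 to 51.9 CPM in SCA1 mice. It was at 41.5 to 44.5 CPM in the WT mice of batch 1 and at 50.6 to 53.4 in those of batch 2. In SCA1 S776A mice the genes of lowest p beside Pde3a were Rps6ka1, the kinase RSK1 (-0.20), and Sgk1, a related kinase (0.49, with 65.4 to 121 CPM against 56.9 to 87.1 in WT). In S776A double mice they were Ppp2cb, a catalytic subunit of PP2A (0.19), and Rps6ka6, the kinase RSK4 (0.26). Genes are named here by rank of p within a genotype, not as particular to it. In the order SCA1, SCA1 S776A, S776A double and WT of batch 1, Rps6ka1 averaged 117.4, 116.9, 116.9 and 134 CPM. Sgk1 averaged 97.2, 97.9, 91.1 and 69.7 CPM in that order.

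In WT S776A homozygous mice the lists were led by PKA inhibitors, small proteins that bind the free catalytic subunit. Pkib was at 70.2, 66.2, 68.8 and 72.7 CPM in the WT mice of batch 2 and at 74.6, 80.5, 87.9 and 110.3 CPM in the homozygous mice, without overlap, as for 1.32% of all genes that lay wholly higher. Its log2 fold change was 0.35 (standard error 0.09, interval 0.17 to 0.53, adjusted p = 0.485, edgeR). Pkia had 294, 247, 249 and 287 CPM in WT and 278, 343, 329.9 and 372 CPM in the homozygous mice, which is 0.30 higher on the log2 scale (standard error 0.09, adjusted p = 0.485, edgeR) with overlapping groups. Homozygous mice 3 and 4, which had the 2 highest Pkib values, are those with the high oligodendrocyte sums given above (10475 and 11511 CPM, against 8376 to 9207 in the WT mice of the batch). Their summed molecular layer interneuron markers were 305 and 262 CPM (359 to 395 in WT), and their multimapping shares 4.56% and 5.79% (3.59% to 4.37% in WT). Granule cell, oligodendrocyte precursor and microglia sums outside the WT mice are given above for the same mice. The part of all these in the PKA inhibitor values was not tested. The anchoring protein gene Akap13 had a log2 fold change of -0.26 (adjusted p = 0.485, edgeR). In this comparison 0 of all 22502 genes were called with edgeR, and 2246 had an unadjusted p under 0.05.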

How the data were processed

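RNA from the cerebellum of 24 mice was sequenced, 1 mouse per library, and the labels do not give litters or cages. Per the submitters' processing notes and methods, the authors trimmed reads with Trimmomatic 0.36, aligned them with STAR 2.7.2d to GRCm38 and counted fragments per gene without regard to strand. The deposited counts are whole numbers without normalization or batch correction, and fragments shared by overlapping genes are in no gene. Of 54232 gene identifiers 54165 matched GENCODE M21, and 1 further row per file was not used here.

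Batch membership was inferred by k-means clustering (k of 2, 50 starts) on 4 shares that STAR lists per library, those of fragments unmapped, mapping to several places, outside genes or ambiguous. It gave 16 and 8 libraries with a mean silhouette of 0.634. Counts were scaled by TMM and tested with edgeR 4.0.16 in R 4.3.3 (quasi-likelihood, robust, genotype and batch terms) on 22502 genes. Fold changes are on the log2 scale of that model, and 95% intervals come from its F statistic. RPKM used the union of exons. Log2 CPM had a prior count of 2. Alternatives used DESeq2 1.42.0, ComBat-seq of sva 3.50.0 and limma 3.58.1.

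The named genes are the 8 members, the 2 most alike genes of each (1 of them is not reported here), the 3 genes of lowest p of the pathway lists in each comparison with WT, and Atxn1. Pde2a was named outside this rule, after its value was seen. Members and lists were chosen with earlier results of these data known. Intervals of counting error were not computed, since counts per gene were high and spread between mice exceeded it.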

Additional observations from a re-analysis of the deposited data

Results flagged for a closer look

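In 8 of 96 groups of 4 mice examined, 1 mouse stood apart, with the ratio of its gap to the nearest other mouse to the group's range (on log2 CPM, or on a share as it stands) past Dixon's 95% critical value, where chance gives about 4.8. The shares and ratios were computed from the same genes, so the 96 groups are not independent. SCA1 S776A mouse 2 accounted for 3 of the 8. It had the lowest Prkar1a of its group (610.1 CPM against 663 to 669.9, ratio of gap to range 0.891), the highest Prkar2b (19.6 against 14.7 to 15.4 CPM, ratio 0.839) and the highest share of Prkar2b among the regulatory transcripts (2.33% against 1.64% to 1.70%, ratio 0.906). WT mouse 8 had the highest Prkaca of the WT mice of batch 2 (211 against 190.1 to 193 CPM, ratio 0.874) and the highest ratio of PKA catalytic to MSK transcripts (8.63 against 8.21 to 8.26, ratio 0.876). In S776A double mice, mouse 1 had the highest Prkar1a (733 against 658 to 668 CPM, ratio 0.854) and mouse 4 the lowest Rps6ka4 (24.4 against 26.4 to 26.8 CPM, ratio 0.851). SCA1 mouse 3 had the lowest share of Prkar2a among the regulatory transcripts (4.30% against 4.47% to 4.49%, ratio 0.878). A further rule, which is not a test, sought members with all 4 mice of 1 genotype above the WT mean of their batch. All 4 mice of another genotype had to lie below the WT mean of theirs, and no member met this rule.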

How the results depend on the processing

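In the 56 comparisons of a member between genotypes, 0 were called under each of the 9 alternatives run and when each mouse was left out in turn. Log2 fold changes moved by at most 0.02 under the alternatives that account for the batch. These used a batch term, counts corrected by ComBat-seq or the mice of 1 batch alone. The move was at most 0.11 when 1 mouse was left out. With the batch ignored, 16 of 56 changed sign, and values moved by up to 0.26. Prkaca then stood at -0.26 in SCA1, -0.35 in SCA1 S776A and -0.30 in S776A double mice. In WT S776A homozygous mice Prkacb then stood at 0.29 (adjusted p = 0.0328, edgeR) and Rps6ka5 at 0.18 (adjusted p = 0.0382, edgeR). When a mouse was left out, 104 of 1344 values changed sign, the largest of them at 0.07 in size with all mice. Between the WT mice of the batches, the number of members called was 0, 1 without the filter on low counts, 5 at an adjusted p under 0.05 without the fold threshold, and 0 to 1 when a mouse was left out. The 1 was Prkaca, at 0.51 without WT mouse 1 and 0.50 without WT mouse 7. With the longest transcript as length, 4 of 8 members kept their place in the order, Prkacb was 53.7% of the catalytic and Rps6ka5 60.7% of the MSK transcripts, Prkar1a, Prkar1b and Prkar2b were 59.9%, 34.7% and 1.41% of the regulatory ones, and the regulatory to catalytic ratio was 2.37. With the mean of each genotype and batch removed, 5 of the 16 most alike genes were named again. Depth limits none of the 8 genes. The number of mice and the inferred batch do, since every genotype other than WT lies in 1 batch. No paired analysis was possible because the labels give no replicate numbers shared by the genotypes.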
